A study of Mus musculus with 16 samples.

Results

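The response of the colon to dextran sulfate sodium (DSS) was measured in mice born by vaginal delivery, by comparing 4 libraries from DSS-treated mice with 4 libraries from mice given plain water. A gene entered the comparison when its level was at least 1 FPKM (a level of sequenced fragments corrected for gene length and library size) in at least 4 of these 8 libraries. This rule kept 13933 of the 39328 genes in the table. All mice of the series were adult ICR mice, an outbred stock, labelled wild type, and the tissue was colon. The 16 libraries fall into 4 groups of 4: vaginally born mice on water (CON_VD), vaginally born mice on 3% DSS for 8 days (DSS_VD), and the same pair for mice born by cesarean section (CON_CS and DSS_CS). Whether the 4 libraries of a group are 4 mice is not stated in the labels, so the p-values measure the spread between libraries. Water and DSS libraries below are those of vaginally born mice unless the cesarean-born mice are named, and values for 4 libraries are given in the order of replicates 1 to 4.

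DSS is a sulfated polysaccharide that, given in drinking water, injures the colon's surface epithelium and lets gut bacteria reach the tissue beneath. The healthy colon lining is made of crypts: stem cells at the base divide, and their daughters become absorptive colonocytes, mucus-secreting goblet cells and rarer hormone-secreting and tuft cells. Colonocytes burn butyrate made by gut bacteria in their mitochondria. In DSS colitis neutrophils and monocytes enter the tissue, fibroblasts remodel the matrix, and epithelium at wound edges takes on a repair state. Group 3 innate lymphoid cells (ILC3), named in the title of the series, make interleukin-22, which instructs epithelium to make antimicrobial proteins.

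The 8 libraries separated by treatment. The first principal component of log2(FPKM + 1) held 72.7% of the variance and placed all 4 water libraries on one side and all 4 DSS libraries on the other. Correlations across genes were 0.951 to 0.978 between water libraries, 0.946 to 0.961 between DSS libraries and 0.768 to 0.895 between the groups. A pair of libraries lay nearest the other group: DSS replicate 2 (PC1 score 34.1, the other DSS libraries 49.5 to 67.7) and water replicate 1 (-39.7, the other water libraries -59.1 to -52.5). Car1, a colonocyte carbonic anhydrase, was at 335 to 532 FPKM in the water libraries and 111 to 305 in the DSS libraries, while 6 of 7 small intestine genes stayed too low to be tested. No male accessory gland gene reached the filter: the best-known of them, Pbsn, did not exceed 0.492 FPKM, and the highest value of any was 2.10. The listed genes summed to 4.17 FPKM in DSS replicate 3 and to at most 1.17 in the other libraries. Genes of the mitochondrial genome held 12.1% ± 1.69 of summed FPKM on water and 8.23% ± 1.19 under DSS (SD, n = 4), and immunoglobulin genes held 2.0% ± 0.262 and 6.63% ± 2.49. Neither share overlapped between the groups, and the exact two-sided permutation test gave p = 0.0286 for each, adjusted p = 0.0286 over 3 shares, the smallest value that 4 against 4 libraries allow.

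Of the 13933 genes, 3340 were higher and 2364 lower under DSS (limma, Benjamini-Hochberg adjusted p under 0.05), which is 24.0% and 17.0% of the genes tested. The difference was at least 2-fold, or 1 on the log2(FPKM + 1) scale, for 1563 of the genes that rose and 689 of those that fell. The 4 water values and the 4 DSS values did not overlap for 5377 genes (38.6% of those tested), among them 4970 of the 5704 that passed the test. The median log2 difference over all tested genes was 0.06. Among the tested genes, 514 had passed the filter only through their DSS libraries and 163 only through their water libraries. Such genes had to differ, and their calls (512 higher, 162 lower) are not independent of the filter.

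**Figure D1:**
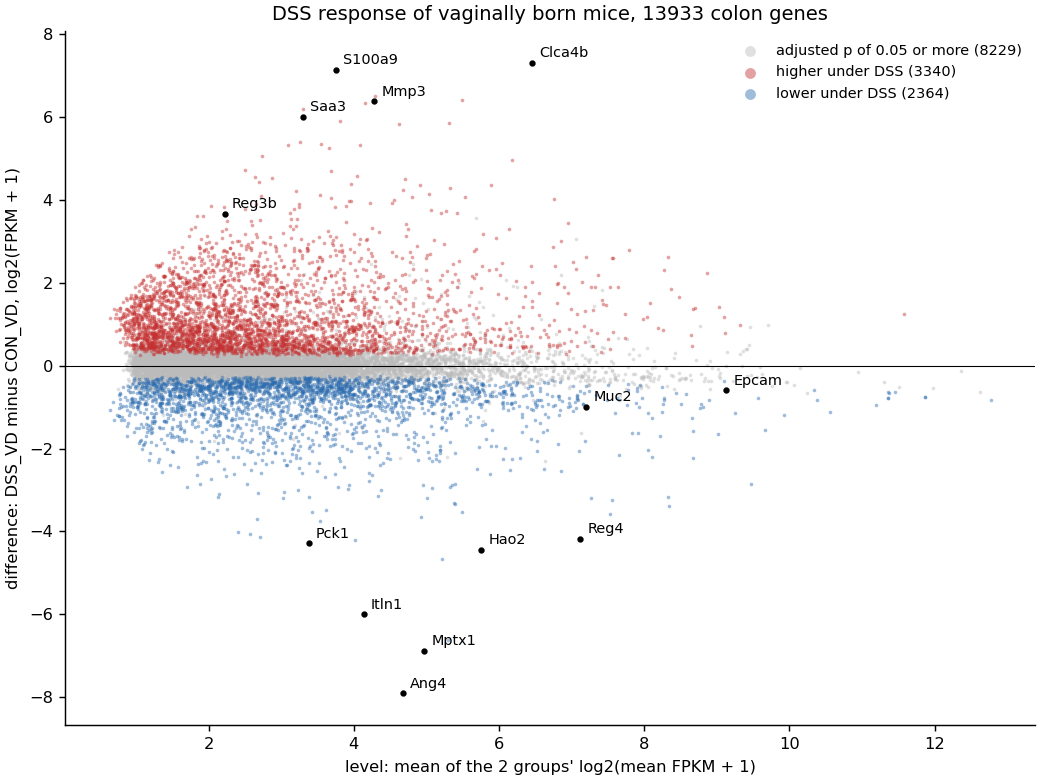
Each point is 1 of the 13933 genes tested. The x axis is its level over both groups and the y axis its DSS minus water difference, both on the log2(FPKM + 1) scale, and colour marks the 3340 genes that rose and the 2364 that fell. The named rises reach 7.32 (Clca4b) and the named falls -7.91 (Ang4).

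The promoters of 6 genes with large rises are shown so that the sequence in front of them can be read beside the values: the neighbouring pairs Cxcl1 with Cxcl2 and Mmp3 with Mmp10, and Il6 and Saa3. Cxcl1 and Cxcl2 encode chemokines that draw neutrophils, Mmp3 and Mmp10 encode stromelysins that cut matrix proteins, Il6 encodes a cytokine, and Saa3 an acute-phase protein. The sequences are RefSeq promoters (GRCm38.p6), the 200 bases before each annotated transcription start, written 5′ to 3′ on the gene's own strand. Capitals mark matches to GGNNTTTCC, a pattern bound by the NF-kB family, or to TGANTCA, bound by AP-1, on either strand. No match to one pattern overlapped a match to the other. They were picked after the values were known.
Cxcl1, chr5:90891045-90891244, plus strand: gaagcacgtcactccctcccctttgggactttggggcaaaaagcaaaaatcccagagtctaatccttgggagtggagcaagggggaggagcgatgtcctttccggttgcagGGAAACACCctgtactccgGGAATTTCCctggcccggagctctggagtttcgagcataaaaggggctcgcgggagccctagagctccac
Cxcl2, chr5:90903699-90903898, plus strand: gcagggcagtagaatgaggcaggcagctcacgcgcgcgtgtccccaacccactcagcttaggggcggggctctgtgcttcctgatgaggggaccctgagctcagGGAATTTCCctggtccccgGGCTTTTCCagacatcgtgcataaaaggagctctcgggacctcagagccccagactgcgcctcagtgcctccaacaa
Mmp3, chr9:7445622-7445821, plus strand: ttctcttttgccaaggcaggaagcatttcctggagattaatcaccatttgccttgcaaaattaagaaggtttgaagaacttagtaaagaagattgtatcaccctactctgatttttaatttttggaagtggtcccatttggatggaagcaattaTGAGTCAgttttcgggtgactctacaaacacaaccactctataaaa
Mmp10, chr9:7502142-7502341, plus strand: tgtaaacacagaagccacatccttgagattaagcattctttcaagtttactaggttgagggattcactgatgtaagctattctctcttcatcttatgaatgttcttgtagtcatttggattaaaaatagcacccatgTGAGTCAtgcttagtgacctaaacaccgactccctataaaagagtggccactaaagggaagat
Il6, chr5:30012914-30013113, plus strand: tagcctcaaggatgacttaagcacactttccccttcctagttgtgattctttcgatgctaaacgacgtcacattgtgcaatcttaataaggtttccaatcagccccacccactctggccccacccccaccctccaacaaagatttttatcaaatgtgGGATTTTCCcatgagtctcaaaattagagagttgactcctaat
Saa3, chr7:46715677-46715876, minus strand: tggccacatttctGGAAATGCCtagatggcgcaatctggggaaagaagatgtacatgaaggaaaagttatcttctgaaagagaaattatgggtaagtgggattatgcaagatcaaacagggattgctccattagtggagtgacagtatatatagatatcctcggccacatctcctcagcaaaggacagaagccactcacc
Cxcl1 and Cxcl2 each held 2 NF-kB-type matches, at 89 and 70 bases before the start in Cxcl1 and at 96 and 77 in Cxcl2, and 1 of them read GGAATTTCC in both. Mmp3 and Mmp10 each held the AP-1 match TGAGTCA, at 46 and 63 bases before the start. Il6 held GGATTTTCC at 43 bases, and Saa3 held GGAAATGCC at 187 bases. Il6 also held the AP-1 match TGAGTCA at 249 bases, in front of the stretch printed. Over all 32851 RefSeq promoter windows of 300 bases (250 before and 50 after the start), 5.82% held the NF-kB pattern and 7.81% the AP-1 pattern. Another 4 patterns searched the same way were present in 1.15% (TTCCNGGAA, STAT), 8.56% (GAAANNGAA, interferon response element), 0.475% (CAAAGTCCA, HNF4) and 10.9% (TTTATNG, CDX) of these windows. Only 9697 of the 13907 tested genes with a unique symbol (69.7%) had a window, under the 80% needed, so the shares were not compared between genes that rose and fell. Over the 12348 windows of tested genes, 6.24% held the NF-kB pattern and 5.52% the AP-1 pattern. The 6 promoters were picked after the values were known, so no enrichment can be read from their matches. A match is a run of letters and says nothing of what bound there.

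All 6 of these genes were under 3 FPKM in every water library and higher in every DSS library. Of the 6, Cxcl1, Cxcl2, Mmp10, Il6 and Saa3 had passed the filter only through the DSS libraries. Cxcl1 was at 0.558, 0.103, 0.66 and 0.549 FPKM on water and 34.2, 17.5, 28.7 and 62.8 under DSS (log2 difference 4.52 ± 0.33 SE, adjusted p = 3.11e-05). Cxcl2 was at 0.012, 0, 0.0309 and 0.0708 FPKM on water and 9.19, 11.4, 7.05 and 23.9 under DSS. For both chemokines DSS replicate 4 was the highest library. Mmp3 stood at 2.27, 0.612, 1.41 and 0.406 FPKM on water and 195, 136, 201 and 162 under DSS, a mean 148 times higher (log2 difference 6.39 ± 0.26, adjusted p = 4.57e-06). Mmp10 moved from 0.496, 0.477, 0.55 and 0.23 to 73.4, 50.3, 38.1 and 90.9 FPKM. Il6 was listed at 0 in all 4 water libraries and at 5.09, 1.98, 2.87 and 11.4 FPKM under DSS. Saa3 was at 0.184, 0.228, 0 and 0.205 FPKM on water and 49.3, 38.9, 128 and 118 under DSS, with replicates 3 and 4 the highest under DSS.

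The genes with the largest rises included epithelial, neutrophil and acute-phase genes. Clca4b, a calcium-activated chloride channel regulator family member, had the largest rise of those named. It was at 11.9, 7.01, 2.2 and 3.97 FPKM on water and 1345, 1382, 833 and 682 under DSS (log2 difference 7.32 ± 0.42, adjusted p = 9.63e-06). S100a9 and S100a8 encode the subunits of calprotectin, the abundant metal-binding protein of neutrophils. S100a9 was at 0.148, 0, 0.0465 and 0 FPKM on water and 131, 73.4, 141 and 349.6 under DSS. S100a8 was at 0.253, 0, 0 and 0.040 FPKM on water and 66.4, 36, 86.1 and 170.1 under DSS. Both were highest in DSS replicate 4 and lowest in DSS replicate 2, and no water library reached 0.3 FPKM. Plet1, a surface protein of epithelial progenitors, stood at 0.514, 0.496, 0.836 and 2.02 FPKM on water and 108, 244, 181 and 110.4 under DSS (log2 difference 6.34 ± 0.31). The other genes among the 14 largest rises were Serpina3n, Nos2, Wfdc18, Cxcl5, Lrg1, Il11 and Ltf, besides Mmp3, Mmp10 and Saa3, with log2 differences from 4.73 (Ltf) to 5.83 (Serpina3n) for these 7. Of the 14, S100a9, S100a8, Saa3, Mmp10, Cxcl5, Il11 and Ltf had passed the filter only through the DSS libraries, so their calls are not independent of it. Wfdc18, a whey acidic protein family member, was highest in DSS replicate 2, at 69.6, 238, 100.1 and 52.4 FPKM. Lactoferrin (Ltf), an iron-binding protein of neutrophil granules and of secretory epithelium, was also highest there, at 38, 46, 15 and 19.8 FPKM.

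The 14 largest falls were led by secreted defence proteins. Ang4, an angiogenin with antimicrobial activity, was at 71.1, 1276, 479 and 194 FPKM on water and 0.323, 0.358, 0.453 and 0 under DSS (log2 difference -7.91 ± 0.73, adjusted p = 8.47e-05). The mucosal pentraxin Mptx1 stood at 65.5, 806, 453 and 278 FPKM on water and at 1.2 to 1.74 under DSS. Its neighbour in the family, Mptx2, stood at 66.9, 998, 501 and 293 FPKM on water and at 1.42 to 3.85 under DSS. These 3 genes varied widely between water libraries, lowest in replicate 1 and highest in replicate 2, yet every water value lay above every DSS value. Itln1, intelectin, which binds microbial sugars, was at 181, 88.9, 90.2 and 206 FPKM on water and 0.736, 2.35, 0.683 and 0.928 under DSS (log2 difference -5.99 ± 0.33, adjusted p = 7.54e-06). Reg4, a regenerating-family lectin of secretory cells, was at 358, 737, 516 and 525 FPKM on water and 14.1, 40.5, 13.6 and 71.9 under DSS. Metabolic enzymes made up most of the rest: Sult1a1 (sulfotransferase), Hao2 (hydroxyacid oxidase), Pck1 (phosphoenolpyruvate carboxykinase, the gluconeogenic enzyme), Gstm3 (glutathione transferase), Cyp2c68 (cytochrome P450), Acer1 (alkaline ceramidase) and Mettl7a2, with Nxpe2 and the ubiquitin ligase gene Rnf186. Of the 14, Ang4, Nxpe2 and Mettl7a2 had passed the filter only through the water libraries, so their calls are not independent of it. Pck1 showed little spread, at 32.7, 51.3, 48.3 and 47.9 FPKM on water and 1.4, 1.5, 0.869 and 1.67 under DSS (log2 difference -4.28 ± 0.17, adjusted p = 4.57e-06). Hao2 was at 202, 254, 297 and 231 FPKM on water and 9.46, 9.06, 7.72 and 16.8 under DSS. Several of these genes have near-identical relatives (the Ang, Mptx, Saa, Reg3, Gstm, Cyp2c, Ces2 and Ly6 families), and no source used here says how the authors' counting split shared reads, so values within such a family are uncertain.

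**Figure D2:**
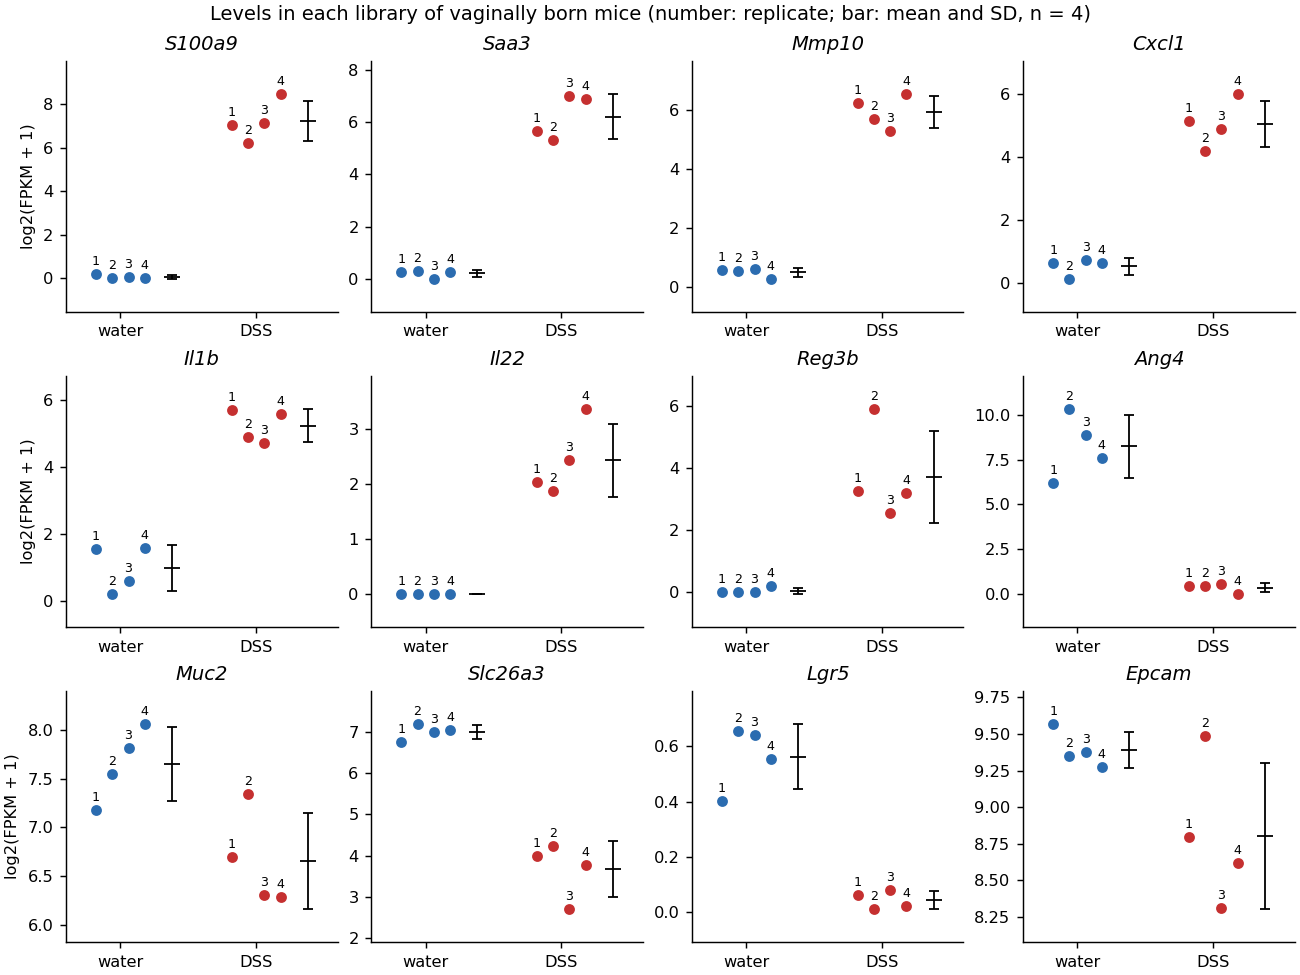
Levels of 12 genes, log2(FPKM + 1), in each water (blue) and DSS (red) library of vaginally born mice, with replicate numbers beside the points and the mean ± SD (n = 4) as a black bar; each panel has its own y axis. Groups are apart in all panels but Muc2 and Epcam; DSS replicate 2 is highest for Reg3b, Muc2 and Epcam among DSS libraries.

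Epithelial identity genes fell in part. Of 14 adhesion, keratin and transcription factor genes common to colon epithelium, 8 fell, none rose and 6 did not pass the test (median log2 difference -0.81, against 0.06 over all genes). The transcription factors fell most. Cdx1, which sets intestinal identity, was at 174, 153, 163 and 177 FPKM on water and 31.6, 67.8, 35.1 and 63.6 under DSS (log2 difference -1.81 ± 0.25, adjusted p = 0.000469). Cdx2 moved from 18.5, 15.3, 25.1 and 33 to 3.98, 10.2, 4.09 and 6.2 FPKM, and Hnf4a, which drives colonocyte differentiation, from 143, 149, 149 and 162 to 65.4, 71.8, 40.3 and 56.4. By contrast Epcam, an adhesion molecule on all colon epithelial cells, was at 756, 651, 665 and 618 FPKM on water and 442, 716, 317 and 393 under DSS and did not pass the test (log2 difference -0.59 ± 0.24, adjusted p = 0.0791). Without DSS replicate 2 it passed (log2 difference -0.82, adjusted p = 0.00384). Cdh17, intestinal cadherin (111, 109, 109 and 113 FPKM on water and 144, 184, 99.5 and 113 under DSS), and Vil1, villin of the brush border (123, 105, 122 and 141 FPKM on water and 134, 155, 79.1 and 86.6 under DSS), did not pass either. DSS replicate 2 had the highest level of the list among the DSS libraries, 7.10 on average (log2(FPKM + 1)), where the other DSS libraries had 6.10 to 6.57 and the water libraries 7.37 to 7.49. In bulk tissue, fewer cells of a type and less RNA per cell cannot be told apart.

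Of 18 tested absorptive colonocyte genes of 19 listed, 9 fell and 1 rose (median over the listed genes -1.03). The rise was lost without water replicate 2 or 3 or DSS replicate 1 or 2, without the filter and under median-of-ratios scaling, and 2 rose without DSS replicate 4. Slc26a3, the apical chloride-bicarbonate exchanger, was at 108, 145, 128 and 132 FPKM on water and 14.8, 17.8, 5.52 and 12.6 under DSS (log2 difference -3.34 ± 0.29, adjusted p = 7.06e-05). Car2, carbonic anhydrase 2, moved from 233, 208, 229 and 259 to 44.3, 43.1, 30.7 and 43.7 FPKM, and Guca2a, which encodes guanylin, a peptide that controls fluid secretion, from 1146, 719, 1416 and 688 to 70.6, 211, 49.4 and 87.3. The sodium-proton exchanger Slc9a3 was at 16.4, 11.1, 19.8 and 35.9 FPKM on water and 6.94, 1.99, 2.78 and 0.884 under DSS. No such separation was seen for Krt20, a keratin of mature surface cells (301, 266, 237 and 450.4 FPKM on water and 422, 555, 269.9 and 227 under DSS, adjusted p = 0.661). Nor was it seen for Car4 (389.8, 273, 197 and 452 FPKM on water and 477, 563, 103 and 86 under DSS, adjusted p = 0.561): its DSS replicates 1 and 2 lay above every water library, and replicates 3 and 4 below.

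Goblet cell genes fell more evenly. Of 13 tested members 12 fell and none rose (median -1.9 over 14 listed). The secretory-lineage factor Atoh1 was at 20, 23.4, 23.1 and 22.2 FPKM on water and 3.93, 6.14, 2.24 and 2.64 under DSS (log2 difference -2.36 ± 0.22, adjusted p = 9.64e-05). Agr2, a disulfide isomerase needed for mucin folding, moved from 587, 653, 504 and 547 to 85.3, 195, 80.5 and 166 FPKM. Clca1, a mucus-processing protein from the same family as Clca4b, moved in the opposite direction to it, from 995, 3057, 2028 and 1302 to 502, 299, 143 and 137 FPKM (log2 difference -2.85 ± 0.48, adjusted p = 0.00144). Muc2, the gel-forming mucin itself, fell less, from 143, 186, 223 and 265 to 103, 161, 78.5 and 77.1 FPKM (log2 difference -0.99 ± 0.27, adjusted p = 0.0168), and DSS replicate 2 overlapped the water range. Of the membrane-bound mucins, Muc1 rose from 1.8, 2.97, 2.71 and 1.25 to 8.74, 6.26, 5.96 and 5.26 FPKM, Muc3a fell, and Muc13, at 364, 570.3, 404 and 643 FPKM on water and 723, 916, 481 and 419 under DSS, did not pass the test.

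Hormone cell genes did not follow the goblet genes. Of 12 enteroendocrine genes, 7 rose, none fell and 5 did not pass (median 0.76). Among these 12, 1 had passed the filter only through the DSS libraries. Tac1, the precursor of substance P, was at 5.29, 3.61, 5.32 and 4.45 FPKM on water and 33, 29.3, 25 and 20.6 under DSS (log2 difference 2.29 ± 0.16, adjusted p = 2.94e-05). Chgb, chromogranin B of secretory granules, moved from 31.2, 29.3, 30.2 and 30.2 to 75, 57.9, 89.5 and 110.1 FPKM, and Gcg, the precursor of GLP-1, from 15.8, 16.5, 13.9 and 15.5 to 63.4, 24.8, 61.2 and 38.7. Insl5, a colonic hormone, was at 145, 136, 136 and 108 FPKM on water and 178, 94.7, 118 and 87 under DSS and did not pass the test. Tac1 and Chgb are also expressed by enteric neurons, and of 9 tested genes of enteric neurons and glia 7 rose, among them the glial filament gene Gfap, from 0.704, 0.403, 0.58 and 0.416 to 3.46, 5.78, 5.76 and 3.65 FPKM. Of these 9, 3 had passed the filter only through the DSS libraries, Gfap among them. The summed level of the 14 listed neuron and glia genes ranged from 25.8 to 38.8 FPKM on water and from 63.7 to 82.9 under DSS. Its part in the hormone gene result was not tested. Tuft cell genes were low, with 4 of 10 tested: Dclk1 and Ptgs1, both also made by other cells, rose, while the taste-pathway channel gene Trpm5 was at 0.266, 0.608, 0.523 and 0.65 FPKM on water and 0.248, 0.0301, 0.127 and 0.0449 under DSS, below the filter. Dclk1 had passed the filter only through the DSS libraries.

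Crypt base genes fell together with Wnt targets. Of 14 tested members of 16 listed, 10 fell and 1 rose (median -0.64); Ascl2 had passed the filter only through the water libraries. Ascl2, a Wnt-driven stem cell factor, was at 2.15, 3.67, 3.09 and 2.81 FPKM on water and 0.372, 0.476, 0.298 and 0.385 under DSS (log2 difference -1.49 ± 0.13, adjusted p = 7.23e-05). The Wnt feedback gene Axin2 moved from 3.54, 4.25, 5.44 and 6.82 to 0.882, 1.47, 0.771 and 1.56 FPKM and Myb, needed by crypt progenitors, from 8.68, 11.1, 11.3 and 10.8 to 1.27, 1.83, 1.18 and 3.26. Lgr5, the classical stem cell marker, lay below the filter and has no test: 0.32, 0.576, 0.558 and 0.468 FPKM on water and 0.0428, 0.00849, 0.0572 and 0.0158 under DSS, with no overlap. The exception was Cd44, also carried by leukocytes, which rose from 5.78, 4.51, 5.64 and 7.44 to 13.5, 10.8, 17.5 and 15.9 FPKM. Few division genes passed the test: of 18 tested, 4 rose and 1 fell (median 0.13), shares near the background. Mki67, present in all dividing cells, was at 8.06, 11.7, 10.1 and 17.3 FPKM on water and 10, 12.7, 10.3 and 15.9 under DSS (adjusted p = 0.812). Mcm3, a helicase subunit of DNA replication, was among those that rose, from 3.48, 3.39, 4.37 and 6.78 to 11.1, 8.06, 11.1 and 11.5 FPKM. The count of division genes that rose was 2 when any of water replicates 1 to 3 or DSS replicates 3 or 4 was left out, and 2 fell without DSS replicate 2 or 4.

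Among tight junction genes more fell than rose. Of 16, 7 fell and 1 rose (median -0.62), and without DSS replicate 2 the count that fell was 11. Cldn2, a pore-forming claudin of crypts, was at 27.2, 35, 36.8 and 46.8 FPKM on water and 0.355, 6.35, 3.23 and 10.3 under DSS (log2 difference -2.98 ± 0.56, adjusted p = 0.00252). Cldn15, another pore-forming claudin, moved from 8.04, 9.77, 15.7 and 23.8 to 1.51, 2.48, 3.78 and 3.51 FPKM and Ocln, occludin, from 26.6, 40.6, 32.2 and 27 to 19.5, 22, 11 and 14.4. Cldn4, a sealing claudin, was the member that rose, from 26.8, 27.9, 28 and 15.1 to 39.6, 51.7, 30.8 and 47.1 FPKM (log2 difference 0.78 ± 0.23, adjusted p = 0.0224), a call lost without DSS replicate 2 or 4, under median-of-ratios scaling and without the filter on low levels. Tjp1, the scaffold ZO-1, was at 11.3, 18, 15.8 and 17.6 FPKM on water and 21.2, 20, 17.5 and 18.2 under DSS and did not pass the test.

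Genes for antimicrobial proteins and interleukin-22 responses moved in both directions. Of 19 tested, 10 rose and 7 fell, and their median over 20 listed was 1.2. The filter was passed only through the DSS libraries by 4 of them (Reg3b, Reg3g, Lcn2 and Saa3) and only through the water libraries by 1 (Ang4). Reg3b, a bactericidal lectin induced by interleukin-22, was at 0, 0, 0 and 0.146 FPKM on water and 8.53, 58.4, 4.81 and 8.08 under DSS (log2 difference 3.67 ± 0.61, adjusted p = 0.00131), and Reg3g at 0.126, 0, 0 and 0.0375 FPKM on water and 5.56, 23.6, 2.28 and 1.32 under DSS. Both were highest in DSS replicate 2. Lcn2, lipocalin, which withholds iron from bacteria, was at 0.532, 0.309, 0.253 and 0.218 FPKM on water and 8.89, 6.49, 29.4 and 20.3 under DSS, lowest in replicate 2. Socs3, a feedback inhibitor of STAT3 signalling, moved from 3.09, 2.9, 5.02 and 8.99 to 56.5, 80.8, 121 and 91.5 FPKM, and Dmbt1, a secreted scavenger receptor, from 149.9, 231, 213 and 201 to 495, 877, 479.9 and 698. Against these, Pigr, the receptor that carries immunoglobulin A across the epithelium, fell from 636, 1095, 894 and 971 to 352, 386, 164 and 287 FPKM (log2 difference -1.64 ± 0.29, adjusted p = 0.00178). Ang4, Itln1, Mptx1, Mptx2 and Reg4, described above, are also members of this list.

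Wound and repair genes of epithelium rose. Of 20 tested, 18 rose and none fell (median 1.69 over 21 listed); 2 had passed the filter only through the DSS libraries. Anxa8, an annexin of wound-edge epithelium, was at 4.43, 2.73, 10.5 and 6.26 FPKM on water and 82.9, 164, 89.5 and 105 under DSS (log2 difference 4.07 ± 0.34, adjusted p = 5.59e-05). Ly6a, which encodes Sca-1, a mark of fetal-like repairing epithelium, moved from 397, 123, 114 and 263 to 1060.2, 1368, 799 and 655 FPKM. Plaur, the urokinase receptor, was at 2.51, 1.99, 2.07 and 1.5 FPKM on water and 22, 27.6, 23.5 and 24.5 under DSS, with little spread under DSS. Ereg, epiregulin, a growth factor for epithelium, rose from 2.06, 2.36, 2.68 and 3.83 to 70.2, 45, 34.7 and 95.4 FPKM. Anxa8 and Ly6a were highest in DSS replicate 2, while several list members (Clu, Spp1, Il33 and Plaur) are also made by stromal or immune cells. Genes of stratified squamous epithelium stayed low, and 1 of 8, Krt14, was tested, through its DSS libraries only, and rose, from 0.895, 0.534, 0.972 and 0.558 to 5.45, 9.36, 2.2 and 3.67 FPKM.

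**Figure D3:**
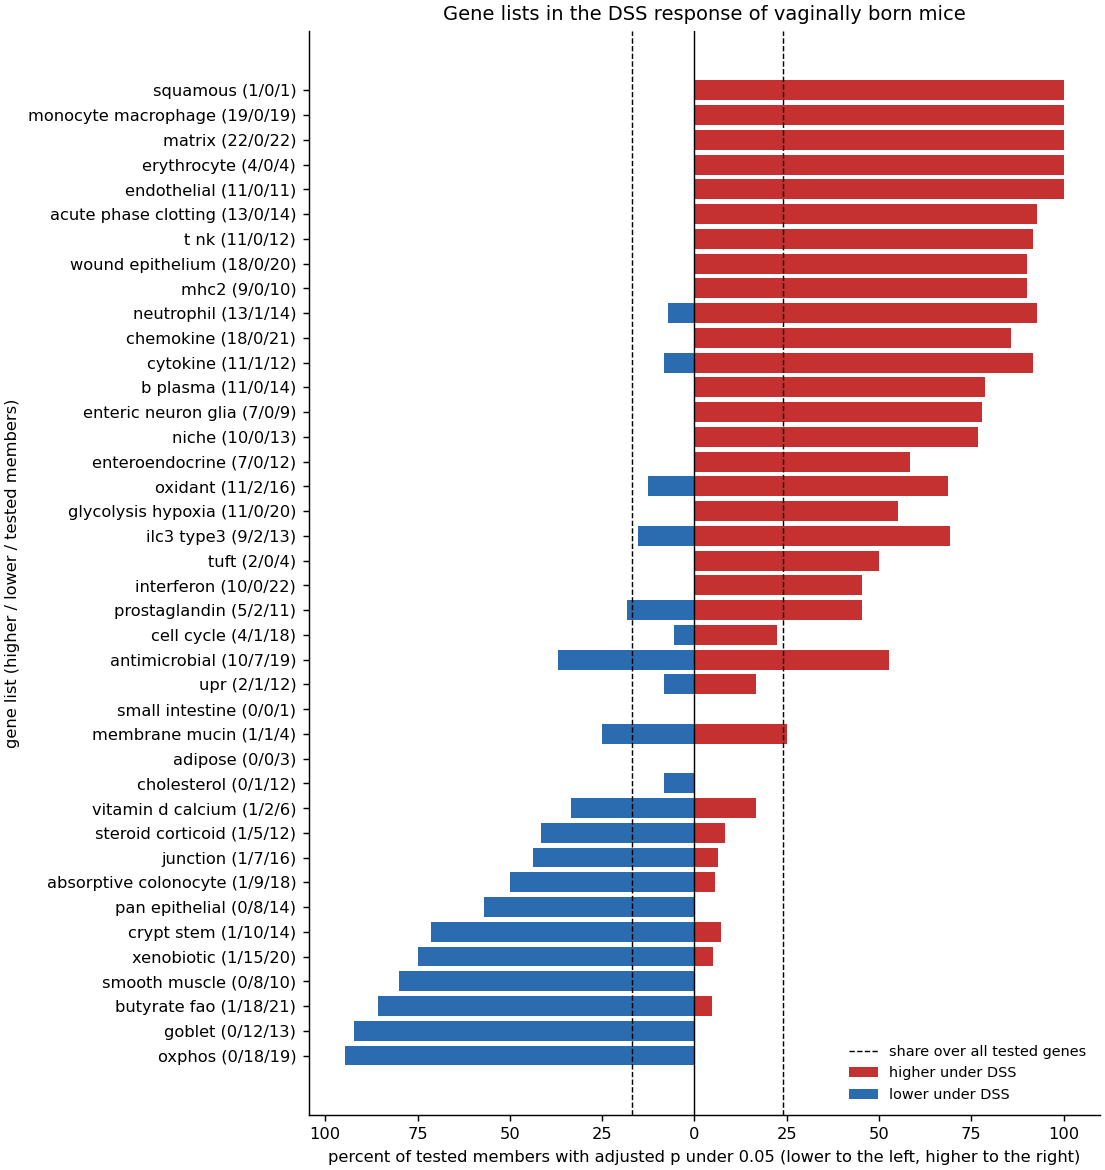
Bars give the percent of tested members of each gene list that rose (red, right) or fell (blue, left) under DSS with an adjusted p under 0.05; the counts stand beside each name and dashed lines mark the shares over all tested genes, 24.0% and 17.0%. Nuclear-encoded respiratory chain genes (18 of 19) and goblet genes (12 of 13) lie at the lower end, and matrix genes (22 of 22) and macrophage genes (19 of 19) at the upper end.

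The respiratory machinery fell by a small and even amount. Of 19 nuclear-encoded respiratory chain genes, 18 fell and none rose (median -0.77). Cox4i1, a cytochrome oxidase subunit, was at 403, 338, 357 and 275 FPKM on water and 145, 219.7, 147 and 179 under DSS (log2 difference -0.99 ± 0.18, adjusted p = 0.00209). Atp5b, the catalytic ATP synthase subunit, moved from 334, 328, 328 and 297 to 152, 175, 158 and 209.8 FPKM. For both genes the water and DSS ranges were apart. The lower share of mitochondrially encoded RNA, given above, went the same way. None of the 18 passed a test that required a change of more than 2-fold.

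Butyrate uptake and fatty acid oxidation genes fell with them, 18 of 21 tested, and 1 rose (median -0.74 over 22 listed). The rise was lost without any of water replicates 1 to 3 or DSS replicates 1, 3 or 4 and under median-of-ratios scaling. Slc5a8, the sodium-coupled butyrate carrier, was at 28.2, 45, 34.6 and 44.1 FPKM on water and 8.27, 11.8, 4.35 and 6.48 under DSS (log2 difference -2.21 ± 0.26, adjusted p = 0.00024), and Slc16a1, the proton-coupled carrier MCT1, at 60.3, 73.8, 54.7 and 56.2 FPKM on water and 19.1, 25.5, 24.8 and 31 under DSS. Acads, the short-chain acyl-CoA dehydrogenase that starts butyrate oxidation, moved from 63.2, 49.3, 66.7 and 55.6 to 14.9, 21.2, 14.4 and 23.2 FPKM, and Hadh from 44.5, 48.8, 48.4 and 40.9 to 12.5, 15.5, 9.95 and 18.2. Ppargc1a, a coactivator that drives mitochondrial gene expression, fell from 4.22, 6.76, 6.07 and 2.56 to 0.875, 0.386, 0.375 and 0.849 FPKM (log2 difference -1.82 ± 0.24, adjusted p = 0.000428). It had passed the filter only through the water libraries, so its call is not independent of the filter. Cpt1a, which admits long-chain fatty acids to mitochondria, was at 12.9, 19.3, 22.6 and 22.3 FPKM on water and 22.2, 16.5, 16 and 20.9 under DSS and did not pass the test.

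Sugar metabolism moved the other way in places. Of 20 glycolysis and hypoxia genes, 11 rose and none fell (median 0.46). Pfkfb3, which makes the activator of phosphofructokinase, was at 1.7, 1.48, 1.43 and 1.08 FPKM on water and 17.1, 18.6, 27.9 and 17.7 under DSS (log2 difference 3.12 ± 0.16, adjusted p = 6.7e-06). Adm, the hypoxia-induced peptide adrenomedullin, moved from 2.61, 2.45, 2.61 and 3.13 to 17.5, 14.6, 13.3 and 14.3 FPKM, Hk2, hexokinase 2, from 20.7, 22.3, 28.6 and 35.3 to 123, 125, 102 and 61.4, and Slc16a3, the lactate exporter MCT4, from 1.73, 1.06, 1.23 and 1.16 to 5.61, 7.17, 6.73 and 11.5. Other hypoxia targets did not pass the test, Car9 at 12.7, 11.7, 12.8 and 12.8 FPKM on water and 10.7, 17, 11.9 and 20.1 under DSS and Vegfa, the vascular growth factor, at 15.2, 17, 18.4 and 11.3 FPKM on water and 17.8, 19.6, 17.3 and 21.8 under DSS.

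Detoxification genes fell, 15 of 20 tested, and 1 rose (median -1.59 over 21 listed); 2, Ugt1a1 among them, had passed the filter only through the water libraries. Ugt1a1, a glucuronosyltransferase, was at 7.74, 11.1, 15.8 and 14.5 FPKM on water and 0.493, 0.247, 0.385 and 0.676 under DSS (log2 difference -3.16 ± 0.20, adjusted p = 1.77e-05). Gstm1, a glutathione transferase, moved from 153, 120.4, 164 and 135 to 21.5, 17.1, 23.8 and 29 FPKM, and Nr1i2, the nuclear receptor PXR that senses foreign compounds, from 26.2, 29.1, 26.4 and 25.3 to 16.9, 20.3, 10.1 and 12.9. Gsta4, another glutathione transferase, was the member that rose, from 39.2, 39.6, 43.5 and 40.8 to 55.9, 76.1, 51.6 and 55.2 FPKM, a call lost under median-of-ratios scaling and in a fit over all 4 groups; 2 members rose without water replicate 1 or DSS replicate 3. Hsd11b2, which inactivates corticosterone and so protects the mineralocorticoid receptor, was at 119, 90.6, 112 and 108 FPKM on water and 12, 20.8, 8.59 and 13.7 under DSS (log2 difference -2.93 ± 0.23, adjusted p = 4.02e-05). Hsd11b1, which regenerates corticosterone, rose from 1.34, 1.69, 1.2 and 0.948 to 6.82, 2.5, 8.53 and 9.67 FPKM. Of 12 tested steroid and corticoid genes, 5 fell and 1 rose, and 1 of the 12 had passed the filter only through the water libraries. The glucocorticoid target Fkbp5, at 8.63, 9.61, 11.6 and 7.24 FPKM on water and 5.57, 7.43, 15.1 and 10.4 under DSS, did not pass the test, nor did Tsc22d3, at 24.1, 20.1, 20.9 and 18.8 FPKM on water and 9.88, 15.9, 29 and 21.3 under DSS. Vdr, the vitamin D receptor, fell from 30.7, 41, 39.7 and 38.2 to 11.9, 11.4, 6.39 and 9.38 FPKM, 1 of 2 genes that fell among 6 tested vitamin D and calcium genes, where 1 rose, but not without any of water replicates 1 to 3 or DSS replicate 4. Of 12 cholesterol synthesis genes 1 fell and none rose, and 0 fell without any of the 4 water libraries or DSS replicate 1 or 3. Over all tested genes 24.0% rose and 17.0% fell, so the small vitamin D and cholesterol counts are not read as results about these lists.

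Cytokine genes rose. Of 17 listed, 12 were tested, 11 rose and Il18 fell, but 7 of the 12 had passed the filter only through the DSS libraries. Il1b, the inflammasome-released cytokine, was at 1.98, 0.174, 0.514 and 2.0 FPKM on water and 50.9, 28.8, 25.2 and 46.8 under DSS (log2 difference 4.22 ± 0.35, adjusted p = 5.59e-05). Il11, an interleukin-6 family cytokine made by fibroblasts, stood at 0.12, 0.0364, 0.143 and 0.0326 FPKM on water and 48.9, 26.5, 17.4 and 66.7 under DSS, and Tnf at 0.735, 0.285, 0.752 and 1.61 FPKM on water and 19, 16.5, 13.2 and 7.53 under DSS. Tnf was lowest in DSS replicate 4, where Il11 and Il6 were highest. Il18, an epithelial cytokine, fell from 79.8, 111, 89.1 and 108 to 52.8, 66.5, 32.6 and 59.3 FPKM. Osm, oncostatin M, was at 0.387, 0.017, 0.11 and 0.147 FPKM on water and 2.69, 1.62, 2.07 and 3.01 under DSS. The interleukin-23 subunit gene Il23a, at 0.33, 0.142, 0.206 and 0.187 FPKM on water and 0.213, 0.207, 0.0912 and 0 under DSS, stayed under the filter.

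Chemokine genes rose in 18 of 21 cases, and none fell (median 2.35), but 5 of the 21, Cxcl1, Cxcl2 and Cxcl5 among them, had passed the filter only through the DSS libraries. Besides Cxcl1, Cxcl2 and Cxcl5, the rises took in chemokines for other leukocytes. Ccl2, which draws monocytes, was at 1.13, 0.554, 0.746 and 0.971 FPKM on water and 28.9, 9.83, 16.8 and 32.7 under DSS (log2 difference 3.51 ± 0.33, adjusted p = 8.54e-05). Cxcl13, which draws B cells, moved from 10.9, 1.94, 1.58 and 4.01 to 87.9, 58.9, 238 and 95.6 FPKM and was highest in DSS replicate 3. Ccl8, another monocyte chemokine, moved from 25.1, 3.33, 4.76 and 3.18 to 238, 58.5, 165 and 172. Ccl20, a CCR6 ligand made by epithelium, was at 2.57, 2.52, 2.13 and 4.02 FPKM on water and 12.5, 6.3, 3.45 and 2.83 under DSS and did not pass the test, and neither did Ccl6 or Cx3cl1. Ccl20 passed without DSS replicate 4 (adjusted p = 0.0496) and Ccl6 without DSS replicate 2 (adjusted p = 0.044).

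Neutrophil genes other than Ly6g and Cd177 were close to 0 on water. Of 17 listed, 14 were tested, 12 of them only because of their DSS levels, and 13 rose. Csf3r, the G-CSF receptor, was at 0.335, 0.195, 0.128 and 0.361 FPKM on water and 11.4, 5.07, 10.3 and 13.4 under DSS (log2 difference 3.07 ± 0.24, adjusted p = 4.59e-05). Cxcr2, the receptor for Cxcl1, Cxcl2 and Cxcl5, was at 0.0373, 0, 0 and 0.0308 FPKM on water and 4.97, 2.12, 3.89 and 9.11 under DSS, and Retnlg at 0.192, 0.159, 0 and 0.31 FPKM on water and 14, 7.87, 33.4 and 84.3 under DSS. All 3, like S100a8 and S100a9, were lowest in DSS replicate 2 and highest in replicate 4. A pair of genes listed as neutrophil markers did not follow them. Ly6g was already at 178, 84.6, 73.2 and 75.5 FPKM on water and was highest in DSS replicate 2 (328, 598, 231 and 360.4 FPKM), and Cd177 fell, from 37.5, 50.1, 63.8 and 23.9 to 4.63, 4.19, 5.33 and 12.4 FPKM. S100a9 was under 0.2 FPKM in the same water libraries.

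Macrophage and monocyte genes rose in all 19 tested cases (median 2.33 over 20 listed), 3 of which, Ccr2 and Arg1 among them, had passed the filter only through the DSS libraries. C1qa, a complement subunit made by resident macrophages, was at 69.3, 26.1, 27.4 and 28 FPKM on water and 254, 110.4, 238 and 181 under DSS (log2 difference 2.41 ± 0.36, adjusted p = 0.000749). Ccr2, the receptor of incoming monocytes, moved from 0.801, 0.367, 0.288 and 0.467 to 8.59, 4.16, 7.62 and 6.49 FPKM, and Itgam, CD11b, from 0.983, 0.99, 0.838 and 1.56 to 8.55, 5.58, 17 and 15.4. Arg1, arginase, behaved differently within the DSS group, at 2.41, 15, 13.2 and 7.89 FPKM, where replicate 2 was the highest and not the lowest; its water values were 0.0912, 0.211, 0.462 and 0.203. The list's summed level ran from 558 to 1192 FPKM on water and from 2169 to 2872 under DSS, with water replicate 1 the highest on water.

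Most oxidant-producing and oxidant-handling genes of epithelium and phagocytes rose, 11 of 16, while 2 fell. Nos2, inducible nitric oxide synthase, was at 0.301, 0.969, 0.53 and 1.4 FPKM on water and 52.3, 93.7, 109 and 48.1 under DSS (log2 difference 5.37 ± 0.30, adjusted p = 7.54e-06). The epithelial peroxide-making oxidase Duox2 moved from 8.38, 11, 12.9 and 14.4 to 96.9, 99.7, 70.7 and 56 FPKM and its maturation factor Duoxa2 from 7.23, 7.07, 9.4 and 8.48 to 146, 133, 133 and 81.9. Cybb, the phagocyte oxidase subunit, moved from 2.56, 1.4, 1.2 and 0.943 to 21.1, 7.09, 20.5 and 14. Nox1, the other epithelial oxidase, fell from 7.52, 7.42, 10.5 and 13.8 to 0.451, 0.436, 0.835 and 2.19 FPKM (log2 difference -2.49 ± 0.28, adjusted p = 0.000191). In the prostaglandin pathway, the synthase gene Ptges rose from 2.74, 3.05, 2.47 and 3.48 to 18.3, 11.7, 19.5 and 20.8 FPKM and Ptgs2, cyclooxygenase 2, from 1.44, 1.25, 1.74 and 1.05 to 22.8, 9.77, 2.84 and 20, with DSS replicate 3 the lowest. Hpgd, which degrades prostaglandins, fell from 115, 128, 118 and 70.6 to 14.9, 18.5, 6.12 and 18.4 FPKM (log2 difference -2.89 ± 0.33, adjusted p = 0.000209). Acute-phase, complement and clotting genes rose in 13 of 14 tested cases (median 2.21 over 17 listed; 2 had passed the filter only through the DSS libraries), including C3, the central complement protein, from 15.5, 4.07, 8.62 and 10.9 to 125, 82.4, 174 and 169 FPKM, and Plat, tissue plasminogen activator, from 2.11, 1.54, 1.97 and 1.3 to 26.1, 56.1, 68.5 and 43.9.

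Type 3 immunity genes rose more often than they fell. Il22, the interleukin made by ILC3 and type 17 T cells, was listed at 0 in all 4 water libraries and at 3.12, 2.67, 4.43 and 9.27 FPKM under DSS (log2 difference 2.43 ± 0.28, adjusted p = 0.000222), having passed the filter only through the DSS libraries. Il17a was at 0 in all 4 water libraries and at 0.566, 0.188, 0.315 and 1.31 FPKM under DSS, and Il17f at 0.0429, 0, 0 and 0.035 FPKM on water and 0.428, 0.24, 1.18 and 1.11 under DSS; neither reached the filter. Il23r stayed under 0.5 FPKM in all 8 libraries. Ccr6, carried by lymphoid tissue inducer-like ILC3 and by B cells, rose from 0.761, 0.267, 0.144 and 0.269 to 6.97, 4.0, 8.67 and 7.04 FPKM, and Tnfsf11, RANK ligand, from 0.319, 0.101, 0.0644 and 0.0559 to 6.92, 5.75, 11.1 and 5.95 (log2 difference 2.86 ± 0.19, adjusted p = 1.94e-05). Ltb, lymphotoxin beta, moved from 14.6, 1.13, 0.98 and 1.37 to 45.6, 30.8, 46.9 and 31.6 FPKM, with water replicate 1 far above the other water libraries. Kit fell, from 3.92, 5.38, 5.54 and 4.66 to 2.67, 1.97, 3.4 and 3.0 FPKM, and Il22ra1, the epithelial receptor subunit for interleukin-22, was at 8.27, 16.2, 10.7 and 9.43 FPKM on water and 17.5, 17.2, 9.95 and 12.3 under DSS and did not pass the test. Of the 13 type 3 immunity genes tested among 17 listed, 9 rose and 2 fell, and 5 of the 13 had passed only through the DSS libraries.

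B cell and antibody genes rose strongly. Of 14, 11 rose and none fell (median 2.31), and 1 of the 14 had passed the filter only through the DSS libraries. Cd79a, the B cell receptor signalling chain, was at 17.1, 2.47, 1.2 and 2.83 FPKM on water and 95.4, 52, 102 and 65.1 under DSS (log2 difference 4.0 ± 0.57, adjusted p = 0.000603). Water replicate 1 was again highest on water, and all 4 DSS libraries lay above it. Antibody classes differed in size of change. Ighm was at 34.8, 5.03, 4.62 and 10.2 FPKM on water and 231, 434, 472 and 282 under DSS. Ighg2b, named after its values were seen, was at 9.43, 2.42, 2.09 and 2.27 FPKM on water and 243, 429, 612 and 302 under DSS (log2 difference 6.42 ± 0.42, adjusted p = 1.94e-05). Igha, the gut's main class, was at 704, 448, 562 and 526 FPKM on water and 777, 425, 1378 and 837 under DSS and did not pass the test (log2 difference 0.51 ± 0.33, adjusted p = 0.249), though it passed without DSS replicate 2 (0.80, adjusted p = 0.0298). The plasma cell chaperone Mzb1 rose from 18.3, 12.8, 13.9 and 8.52 to 58.8, 71.5, 94.7 and 55.5 FPKM. MHC class II presentation genes rose in 9 of 10 cases; Ciita, their master regulator, was at 1.68, 0.518, 0.444 and 0.365 FPKM on water and 9.65, 4.18, 8.35 and 5.69 under DSS.

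T cell genes rose from low levels. Of 12 tested among 17, 11 rose and none fell (median 1.29), and 3 had passed only through the DSS libraries. Cd4, the helper T cell coreceptor, was at 1.63, 0.78, 0.684 and 0.695 FPKM on water and 11.6, 5.02, 8.1 and 7.05 under DSS (log2 difference 2.17 ± 0.23, adjusted p = 0.000152). Foxp3, the regulator of regulatory T cells, was at 0.105, 0.00995, 0.0241 and 0.0308 FPKM on water and 1.32, 1.0, 1.56 and 1.4 under DSS. Gzma, a cytotoxic granule protease, was at 8.03, 0.892, 0.811 and 0.357 FPKM on water and 27.2, 4.4, 9.29 and 10.3 under DSS, and its ranges overlapped through water replicate 1; its call was lost without water replicate 2, 3 or 4 or DSS replicate 1, and without the filter on low levels. Ifng, interferon gamma, did not exceed 0.495 FPKM in any of the 8 libraries and was not tested.

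The count of interferon-stimulated genes that rose changed with the library left out. Of 22, 10 rose and none fell (median 1.46). Without water replicate 1 the count was 18, and without water replicate 2 or 3, or DSS replicate 1, it was 5; without DSS replicate 3 it was 6. Isg15, a ubiquitin-like protein, was at 133, 5.71, 2.63 and 28.7 FPKM on water and 263, 82.7, 58.2 and 22.9 under DSS and did not pass the test (adjusted p = 0.169). Its highest water value, in replicate 1, exceeded 3 of the 4 DSS values, and without that library it passed (log2 difference 3.06, adjusted p = 0.0278). Gbp2, a guanylate-binding protein that attacks intracellular microbes, separated the groups, at 40.2, 9.57, 8.68 and 15.2 FPKM on water and 107, 125, 103 and 52.7 under DSS (log2 difference 2.53 ± 0.45, adjusted p = 0.00199). Water replicate 1 was also the highest water library for the B cell, MHC class II and T cell lists, and the part of this library's lymphoid content in its interferon levels was not tested.

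**Figure D4:**
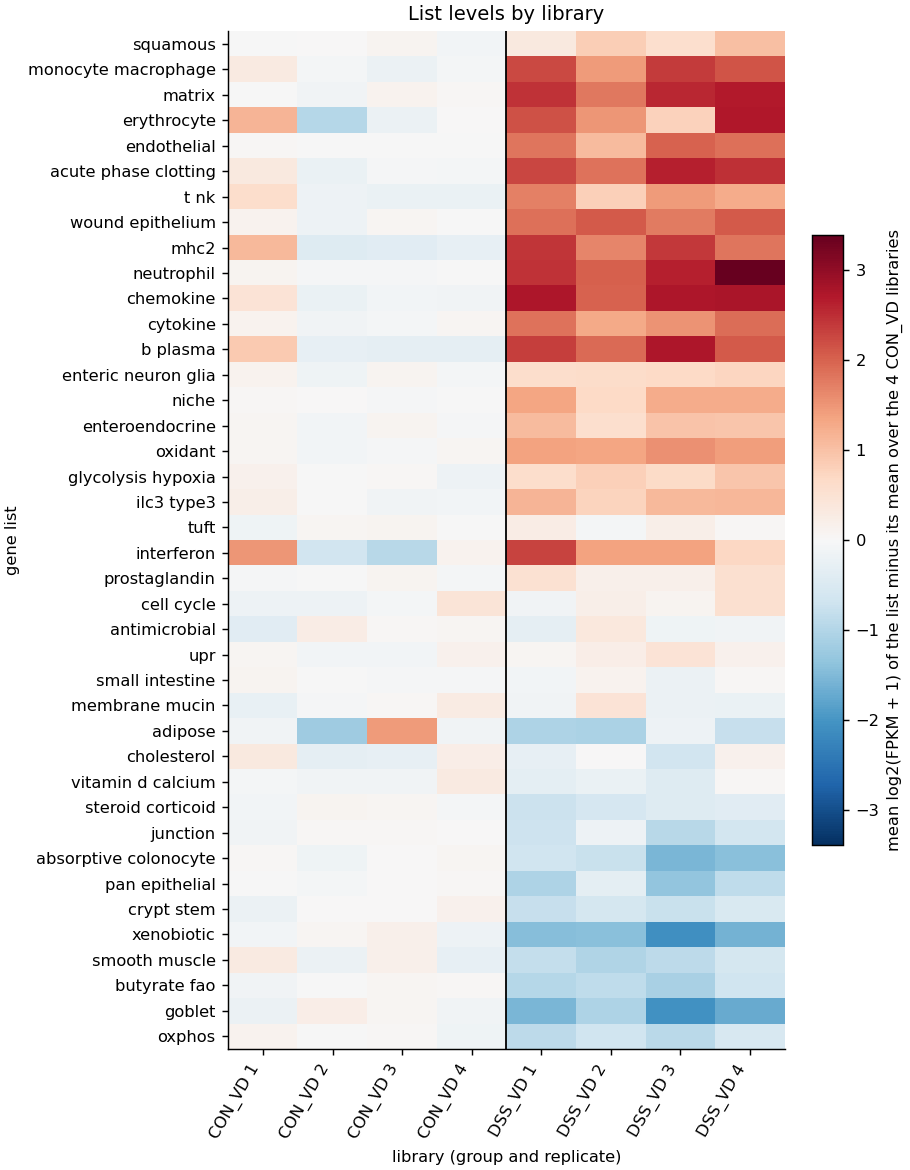
Heat map of each list's mean log2(FPKM + 1) in the 8 libraries of vaginally born mice, minus its mean over the 4 water libraries (colour scale, red higher, blue lower). Lists follow the order of the bar plot of list shares. Water replicate 1 is red for the interferon, MHC class II, B cell and T cell lists, and water replicate 3 for the fat list.

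Matrix genes rose. All 22 tested matrix genes of 23 listed rose (median 1.94). Among them, Mmp10 had passed the filter only through the DSS libraries. Col1a1, a fibrillar collagen chain, was at 19.1, 16.4, 20.7 and 21 FPKM on water and 78.3, 43, 85.8 and 74.8 under DSS (log2 difference 1.78 ± 0.21, adjusted p = 0.000229). Timp1, an inhibitor of matrix metalloproteinases, moved from 1.95, 1.78, 2.98 and 1.9 to 45.4, 40.7, 69.3 and 50 FPKM, with an adjusted p of 4.87e-06, and Mmp13, a collagenase, from 1.46, 1.57, 1.54 and 1.21 to 79.3, 57.8, 35 and 94. Col1a1, Timp1 and the list's mean were lowest in DSS replicate 2 among the DSS libraries. Of 13 tested niche signal genes, 10 rose and none fell. Grem1, a BMP antagonist that favours stem cells, was at 14.8, 6.98, 10.3 and 9.71 FPKM on water and 167, 148, 208 and 226 under DSS (log2 difference 4.06 ± 0.22, adjusted p = 7.16e-06), and Rspo3, a Wnt amplifier, at 2.73, 1.87, 2.26 and 1.85 FPKM on water and 6.62, 4.98, 8.32 and 8.49 under DSS. All 11 tested endothelial genes rose (median 1.56 over 12 listed; 2, Selp among them, had passed the filter only through the DSS libraries), including Selp, the selectin that captures leukocytes, from 0.219, 0.412, 0.308 and 0.182 to 7.07, 6.26, 17.7 and 13.2 FPKM, and Pecam1, a general endothelial marker, from 5.72, 5.5, 5.94 and 5.23 to 21.9, 12.7, 22.5 and 20.8.

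Smooth muscle genes went the other way. Of 10, 8 fell and none rose (median -0.80); Actg2, enteric smooth muscle actin, was at 544, 319, 538 and 311 FPKM on water and 119.7, 114, 123 and 184 under DSS (log2 difference -1.63 ± 0.25, adjusted p = 0.000785). How much muscle wall each sample held is not given in the labels. Its part in these levels was not tested. Blood and fat markers varied between libraries. The 4 tested haemoglobin genes rose, Hbb-bs from 125, 20.2, 41.1 and 44.1 to 246, 172, 86.2 and 351 FPKM with overlap, and 2 of them rose without water replicate 2 or 3 or without DSS replicate 1 or 4; without the filter on low levels 1 rose, and not Hbb-bs. Cfd, adipsin of fat, was at 10.5, 0.214, 47.8 and 6.92 FPKM on water and 0, 0, 12.6 and 1.91 under DSS and did not pass the test. None of 6 genes of the mesothelial covering was tested. Unfolded protein response genes stayed near the background, 2 higher and 1 lower of 12 tested (1 higher without water replicate 2 or 3 or DSS replicate 2, 3 or 4, and 2 lower without water replicate 4); Hspa5, the endoplasmic reticulum chaperone BiP, was at 151, 107, 129 and 197 FPKM on water and 160.1, 207, 256 and 174 under DSS (adjusted p = 0.125, and 0.0408 without water replicate 4).

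The response was set beside that of cesarean-born mice, fitted the same way on their own 8 libraries, which share none with the libraries above. There 4937 genes rose and 3729 fell of 14372 tested (34.4% and 25.9%). Of the 5704 genes that changed in vaginally born mice, 5563 were tested in cesarean-born mice, and there 4626 changed in the same direction, 46 in the opposite direction and 891 did not pass. The difference between the 2 responses was tested as the interaction of delivery and DSS over all 16 libraries. It passed for 2015 of 15233 genes (13.2%), and for 978 of the 5704. The log2 response was larger in vaginally born mice for 998 of the 2015 genes and smaller for 1017. The interaction count was 1239 without DSS_VD replicate 2, 1095 without CON_VD replicate 3, and 1126 to 1322 without CON_CS replicate 3 or 4 or DSS_CS replicate 2 or 3. The cesarean libraries differed in genes of other tissues. Summed male accessory gland genes were at 278 FPKM in CON_CS replicate 1, 156 in DSS_CS replicate 3 and 1643 in DSS_CS replicate 4. No other cesarean library exceeded 0.791. Fat genes summed highest in DSS_CS replicate 4, at 163 FPKM. Smooth muscle genes (3238 FPKM) and neuron and glia genes (246 FPKM) summed highest in DSS_CS replicate 2. Their part in the differences between responses was not tested.

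Epithelial identity fell less in vaginally born mice. The interaction passed for 10 of the 14 epithelial identity genes, all with the less negative response in vaginally born mice, where the list median was -0.81 against -2.08 in cesarean-born mice. Epcam had a log2 response of -0.59 in vaginally born and -2.08 in cesarean-born mice (difference 1.49 ± 0.42 SE, adjusted p = 0.0329). It stood at 679.5 ± 46.4 FPKM in CON_CS and 176 ± 95.5 in DSS_CS (mean ± SD, n = 4). The same direction was found for 7 of 16 tight junction genes, 7 of 20 detoxification genes and 6 of 18 division genes. Mki67 differed by 1.47 ± 0.33 (adjusted p = 0.0146), with a log2 response of 0.08 that did not pass in vaginally born mice and one of -1.39 in cesarean-born mice. Dmbt1 rose in vaginally born mice (1.65) and fell in cesarean-born mice (-1.68; difference 3.33 ± 0.42, adjusted p = 0.00221). Clca4b rose in both, by 7.32 and 2.67 (adjusted p = 0.00473 for the difference).

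Neutrophil and erythrocyte genes responded less in vaginally born mice. Of 16 neutrophil genes tested for the difference, 10 had the smaller response in vaginally born mice and 2, Ly6g and Ltf, the larger. S100a9 had responses of 7.15 and 9.17 (difference -2.02 ± 0.46, adjusted p = 0.0157), and Il1b of 4.22 and 6.56 (adjusted p = 0.012). All 5 haemoglobin and haem synthesis genes tested had the smaller response in vaginally born mice, Hbb-bs by -4.28 (adjusted p = 0.0139), as had 7 of 12 neuron and glia genes, 7 of 21 chemokine genes and 7 of 23 matrix genes. No gene of the T cell or MHC class II lists (13 and 10 tested) passed this test, and of the type 3 immunity list 1 of 14 did, Il22ra1 (adjusted p = 0.00734). Over all genes 13.2% passed in either direction, so lists this small would hold few such genes in any case. For Il22 the difference was 1.02 ± 0.33 (adjusted p = 0.0538). For Ang4, CON_CS stood at 1.04 ± 0.957 FPKM and DSS_CS at 0.107 ± 0.0229 (mean ± SD, n = 4; adjusted p = 0.00221 for the difference).

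**Figure D5:**
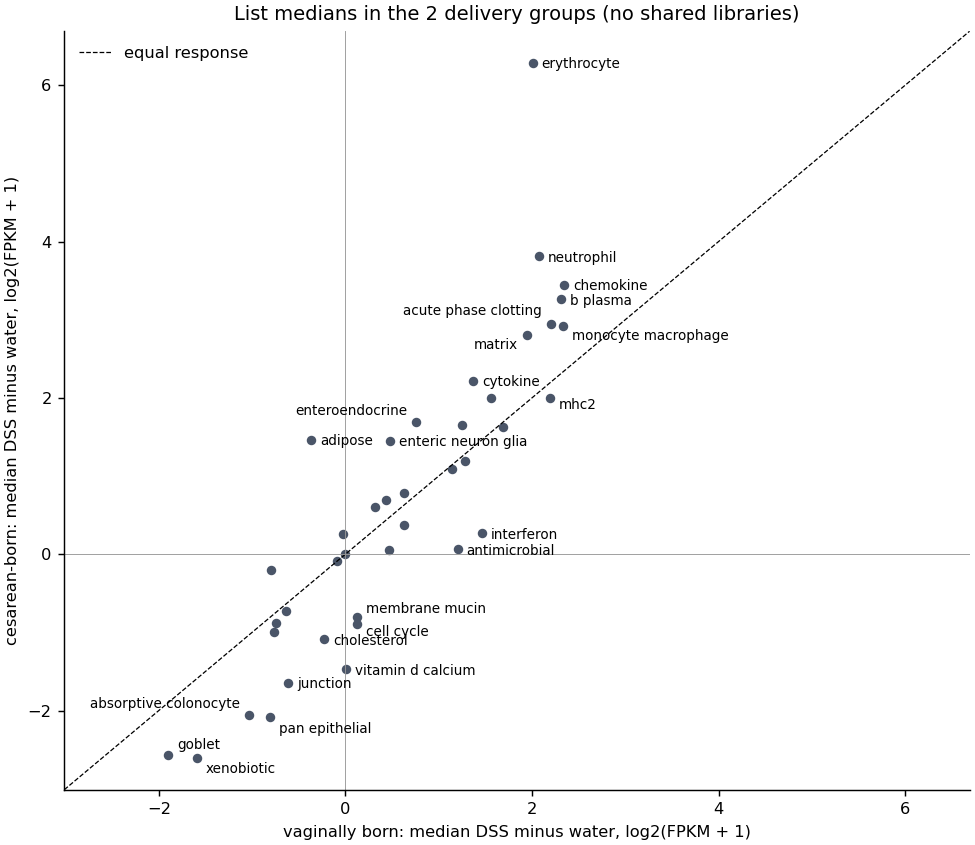
Each point is a gene list, placed by the median DSS minus water difference, log2(FPKM + 1), over its listed genes in vaginally born (x) and cesarean-born (y) mice; the dashed line marks equal medians. The epithelial identity list lies below the line (-0.81 and -2.08), and the erythrocyte (2.01 and 6.29) and neutrophil (2.08 and 3.81) lists above it.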

How the data were processed

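Colon RNA, extracted with Trizol per the labels' protocols, was sequenced in 16 libraries. The authors deposited 1 table of FPKM values per gene; per the submitters' processing notes they used cutadapt, FastQC and the genome build GRCm38. For the aligner, the counting program and the annotation release: not given in the sources used here. No read counts could be recovered from the FPKM values, so depth is unknown.

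Groups came from the sample titles. Genes with at least 1 FPKM in at least 4 of the 8 libraries compared were tested on log2(FPKM + 1) with limma 3.58.1 (R 4.3.3; moderated test with an intensity trend, two-sided, Benjamini-Hochberg adjusted over all tested genes, threshold 0.05). Fold changes on this scale understate those of low genes. The interaction of delivery and DSS was fitted over all 16 libraries. Shares of summed FPKM were compared by exact permutation (scipy 1.17.1). The test was checked on simulated data. No 2 libraries held identical values. The gene IDs of 147 genes had no symbol.

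The members and the 42 gene lists were chosen with earlier results of these data known. The text names the 14 largest rises and falls among genes with non-overlapping groups and a mean of at least 5 FPKM in the higher group (leaving out antigen receptor segments, predicted genes and genes at 0 in a library of that group), the 4 members of smallest p in each list, and set genes of interest; further list members were named after their values were seen, and a few genes these rules pick are not reported here. Alternatives covered the pseudocount, filter, scaling, variance prior, groups fitted, replicate block, a 2-fold threshold and each library left out.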

Additional observations from a re-analysis of the deposited data

Results flagged for a closer look

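For 57 of the 170 genes named in the report, the DSS response differed between delivery modes by the interaction test over 16 libraries (limma, adjusted p under 0.05). Over all genes the test passed for 2015 of 15233 (13.2%). Many of the 170 were picked for their response in the vaginally born libraries, which also enter this test, so these shares cannot be compared. Values are the log2 response of vaginally born mice minus that of cesarean-born mice. Higher and lower here give the sign of the mean response, whether or not it passed the test within each delivery group. For example, Muc1 had a log2 response of 0.07 in cesarean-born mice (limma adjusted p = 0.828), and Vil1 one of -0.16 in vaginally born mice. Among genes higher under DSS in both, 19 had the smaller response in vaginally born mice: -0.92 for Ptges, -0.92 for Col1a1, -0.92 for Cd44, -0.97 for Rspo3, -1.17 for Ccl6, -1.45 for Mmp10, -1.5 for Mmp13, -1.61 for Timp1, -1.65 for Csf3r, -1.65 for S100a8, -1.66 for Saa3, -1.78 for Spp1, -1.79 for Ereg, -1.81 for Cxcr2, -2.02 for S100a9, -2.21 for Cxcl2, -2.34 for Il1b, -2.36 for Osm and -4.28 for Hbb-bs. The larger response was theirs for 11 such genes: 0.82 for Adm, 0.94 for Mcm3, 1.19 for Muc1, 1.48 for Plat, 1.73 for Duoxa2, 1.87 for Duox2, 1.95 for Ly6a, 2.33 for Nos2, 2.52 for Anxa8, 2.95 for Ltf and 4.64 for Clca4b. Among genes lower under DSS in both, the response was less negative in vaginally born mice for 13: 1.21 for Nox1, 1.23 for Ocln, 1.28 for Atoh1, 1.31 for Vdr, 1.49 for Epcam, 1.54 for Slc5a8, 1.61 for Hnf4a, 1.78 for Nr1i2, 1.82 for Vil1, 2.18 for Slc26a3, 2.39 for Pigr, 2.43 for Hsd11b2 and 2.70 for Car4. It was more negative for 3: -4.09 for Mptx2, -4.98 for Mptx1 and -7.13 for Ang4. On water, cesarean-born mice had 6.49 ± 1.06 FPKM of Mptx1 and 8.65 ± 2.57 of Mptx2, against 400.4 ± 313 and 465 ± 397 in vaginally born mice (mean ± SD, n = 4). For 10 genes the mean was higher under DSS in vaginally born mice and lower in cesarean-born mice: 0.75 for Tjp1, 1.47 for Mki67, 1.59 for Cdh17, 1.62 for Gsta4, 1.90 for Hk2, 2.10 for Il22ra1, 2.15 for Ly6g, 2.46 for Muc13, 2.58 for Gbp2 and 3.33 for Dmbt1. The fat gene Cfd went the opposite way, at -5.68.

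Within groups of 4 libraries, 1 library stood far from the other 3 for 20 of the 292 gene and group pairs checked, by Dixon's test on log2(FPKM + 1) at its 95% critical value. Chance alone gives about 1 in 20 such pairs. Water replicate 1 was apart as the highest library for C1qa at 69.3 FPKM, Cd4 at 1.63 FPKM, Ciita at 1.68 FPKM, Ighg2b at 9.43 FPKM, Ltb at 14.6 FPKM and Ly6g at 178 FPKM. Water replicate 1 was apart as the lowest library for Pck1 at 32.7 FPKM. Water replicate 2 was apart as the lowest library for Car9 at 11.7 FPKM. Water replicate 3 was apart as the highest library for Timp1 at 2.98 FPKM. Water replicate 4 was apart as the highest library for Ccl6 at 123 FPKM. Water replicate 4 was apart as the lowest library for Atp5b at 297 FPKM and Cldn4 at 15.1 FPKM. DSS replicate 1 was apart as the lowest library for Lrg1 at 31.1 FPKM. DSS replicate 2 was apart as the lowest library for Mcm3 at 8.06 FPKM and Pecam1 at 12.7 FPKM. DSS replicate 3 was apart as the lowest library for Car2 at 30.7 FPKM. DSS replicate 4 was apart as the highest library for Acer1 at 2.62 FPKM, Actg2 at 184 FPKM and Cyp2c68 at 3.5 FPKM. DSS replicate 4 was apart as the lowest library for Duoxa2 at 81.9 FPKM.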

How the results depend on the processing

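The 5704 genes past the threshold became 3276 (1691 higher) with a filter of at least 5 FPKM, which tested 7724 genes, and 746 (561 higher, 185 lower) when the test demanded a 2-fold change. The other settings gave 5221 to 6529: pseudocount 0.1 gave 5680, no filter 6529, no trend 5679, a robust prior 5663 and 1 fit on all 4 groups 6463. Median-of-ratios scaling gave 5933, of which 48.8% were higher against 58.6%, and scaling to equal sums gave 5446, of which 65.8% were higher. The median over all genes was -0.04 and 0.14 under these scalings. With the replicate block the count was 5221 (3174 higher, 2047 lower), and 5010 of these were among the 5704. After each gene's group mean was subtracted, same-numbered water and DSS libraries correlated at 0.137, 0.0578, 0.0227 and 0.0909. Pairs with different numbers ran from -0.169 to 0.141, a range that holds all of these values. The same-numbered values were all positive, so this range cannot exclude a pairing. The labels give no design beyond the 4 groups, so the numbers were not taken to pair the libraries in the main test. The replicate block gave 8247 genes for the cesarean-born response and 1520 for the interaction, and 16 interferon genes that rose.

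Leaving out 1 library at a time gave 4636 to 5994 genes (2785 to 3688 higher, 1844 to 2306 lower). Without water replicate 1 and DSS replicate 2 together, chosen after seeing the data, it was 5664, of which 5080 were among the 5704. Leaving out 1 library gave 7989 to 8574 genes for the cesarean-born response and 1095 to 2570 for the interaction. No gene named in the report that had passed the test changed direction under any of these 19 settings in which it was tested; 118 of the 140 were tested with the filter of at least 5 FPKM. That filter also lowered the list counts that rose, to 11 for macrophage, 7 for neutrophil, 7 for endothelial, 4 for cytokine and 3 for T cell genes. Requiring a 2-fold change removed 45 of the 140 named genes that had passed. Besides that setting, calls were lost for Cldn4, Gzma, Gsta4, Car1 and Hbb-bs. Depth cannot be read from these FPKM values, so the precision of low genes is unknown.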

Other observations

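T cell receptor segments are few in the tested set, and by annotated type 9 of 9 joining, 4 of 4 variable, 2 of 2 diversity and 4 of 6 constant genes rose, with none falling. Among immunoglobulin genes, 66 of 178 variable segments, 12 of 13 joining segments and 10 of 11 constant genes rose, and none fell; 112 variable segments did not pass the test. Variable segments resemble each other closely, so reads may be shared among them. Over protein-coding genes, 25.2% rose and 17.4% fell of 12017 tested.

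Antisense RNA genes fell in 47 of 149 cases (31.5%) and rose in 22 (14.8%). Small nucleolar RNA genes rose in 9 of 59 cases (15.3%) and fell in 1 (1.69%). Over all tested genes 24.0% rose and 17.0% fell, so both classes rose less often than tested genes as a whole. The sources used here do not say whether counting used strand, so antisense levels cannot be separated from those of the genes they overlap.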
